A study of Mus musculus with 4 samples.

Results

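Cdkn1c, Rprm and Spc25 are the 3 genes of a 300-gene imaging panel that belong to the cell cycle, and they were measured in retinal ganglion cells of the mouse. They were chosen by name, with their levels in these data already known, and all 3 were detected in all 5 retinas. Of 53 cell cycle genes listed for comparison, 3 are on the panel, namely these genes themselves, so no cyclin or proliferation marker could be set beside them. The data come from wild-type C57BL/6 retinas, from mice kept without manipulation or treatment, cut en face at 20 µm and imaged on the Xenium platform, which counts decoded transcripts (puncta) of each gene in each cell. There is a single condition, and the age of the mice and their number are not given in the sources used here. The 4 deposited samples are pairs of slides, 8 slides with 41 sections in all, and no label ties a retina to a sample. No source says that the retinas came from separate mice, so a p-value here reflects variation among these 5 retinas, which may be technical.

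Cdkn1c encodes p57Kip2, an imprinted inhibitor of cyclin-dependent kinases that holds cells out of the cycle and is known from progenitors leaving division in the developing retina. Rprm encodes Reprimo, a p53-induced protein tied to arrest before mitosis. Spc25 is a subunit of the Ndc80 complex, which links kinetochores to spindle microtubules in dividing cells. Ganglion cells are the output neurons of the retina and are postmitotic.

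The table holds 131379 cells of 45 types, all of class ganglion cell and each with at least 100 puncta. Retinas held 13127 to 41048 cells and 4048481 to 12879454 puncta, with a median of 285 to 326 puncta per cell. Type names are those of the authors' table, and types may rest in part on these genes, so levels by type are a description with no test. Of 10 listed ganglion cell markers, 5 are on the panel, and their summed level was 76.6 to 82.6 per 1000 puncta in cells with Spc25 and 68.0 to 78.2 in cells without it. Levels below are a gene's puncta per 1000 puncta of all genes in the same cells, as mean ± SD over the 5 retinas, unless puncta per cell are named. Genes are not compared in level with each other, since probes differ. Cdkn1c gave 22028 puncta and was seen in 9.22% of cells, Rprm gave 72697 puncta in 26.6% of cells, and Spc25 gave 651482 puncta in 87.7% of cells.

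Cdkn1c was concentrated in a few types, led by alpha cells, the large ganglion cells with thick axons, and by the M1 types, which carry melanopsin. In 45_AlphaOFFT it was 6.63, 6.47, 6.70, 7.32 and 6.52 per 1000 puncta in retinas 1 to 5, which is 6.73 ± 0.34. In 41_AlphaONT the 5 retinas gave 6.08, 5.29, 3.18, 5.43 and 4.55, and in 33_M1 they gave 6.93, 5.28, 3.04, 6.17 and 2.16. Retinas 3 and 5 were the low ones in both types, and the order of these types was not stable, with 41_AlphaONT above 33_M1 in 3 of 5 retinas. In 40_M1dup the level was 2.93 ± 1.19, and in 42_AlphaOFFS 1.36 ± 0.24. The remaining alpha type, 43_AlphaONS, was at 0.257, beside 0.262 for the median type. Against that median, 45_AlphaOFFT stood 25.6 times higher, and 9 types exceeded the median by more than 2 times.

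The 2 leading types held 30.4% of all Cdkn1c puncta with 1.93% of all cells. The lowest type was 35_Novel at 0.165 ± 0.122. Of 44 pairs of neighbours in the order, 3 kept their order in all 5 retinas with a mean difference above its SD: 45_AlphaOFFT over 41_AlphaONT, 40_M1dup over 42_AlphaOFFS and 37_Novel over 18_Novel. The genes whose type profile was most like that of Cdkn1c were Kcnip2, which encodes a potassium channel interacting protein (Pearson r = 0.83 over 45 types), the transcription factor Etv1 (r = 0.78) and the neuropeptide gene Gal (r = 0.68). The types share libraries and panel, so these correlations are a description.

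Within its high types, Cdkn1c was uneven from cell to cell. In 45_AlphaOFFT, 35.4% of 1806 cells had no punctum, where a Poisson law with the same mean of 2.94 puncta would leave 5.27%, and the highest cell had 32. In 33_M1, 67.0% of 1468 cells had none, against 26.9% under the Poisson law. There, the 6.88% of cells with at least 5 puncta held 66.9% of the type's puncta, and the highest cell had 48. The Poisson values describe unevenness only, since cells differ in depth.

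Rprm had a different set of types. In 04_FminiOFF, a small OFF type of the Foxp2-expressing F group, it was 8.41, 12.3, 9.76, 9.48 and 9.52 per 1000 puncta in retinas 1 to 5. Retina 2 was the highest there, as it was in all 7 leading types. In 09_Tbr1_Novel the level was 7.57 ± 0.69, in 28_FmidiOFF 7.54 ± 1.09 and in 40_M1dup 7.53 ± 2.61. Next came 33_M1 at 6.79 ± 2.13, 17_Tbr1_S1 at 6.46 ± 0.86 and 05_J-RGC, the cells named for Jam2, at 6.23 ± 0.83. The last of these stood above 07_Novel, at 2.85 ± 0.73, in all 5 retinas.

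The 7 leading types held 58.5% of Rprm puncta with 14% of cells. Relatives of the leading types were lower than these: 03_FminiON, the ON counterpart of the leading F type, was at 0.51, and 21_Tbr1_S2 was at 1.63. The former was at the level of the median type and the latter above it. Alpha types were at 0.299 to 0.456, below the median type at 0.511, and the lowest type was 39_Novel at 0.223. The M1 types were high in both genes. Over the 45 types the profiles of Cdkn1c and Rprm had r = 0.07. The profile most like Rprm was that of Grin3a, a glutamate receptor subunit gene (r = 0.60), then the transcription factor gene Isl1 (r = 0.60) and the calcium pump gene Atp2b4 (r = 0.56).

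Spc25 was spread over all types. Per cell it had 5.96 ± 0.62 puncta in the highest type, 44_Novel, and 4.05 ± 0.89 in the lowest, 42_AlphaOFFS. The coefficient of variation over types was 8.10% per cell, lower than that of every other panel gene, where the median gene had 60.0%. Rprm had 139% and Cdkn1c 205% on the same measure. As a share of puncta Spc25 ranged further, at 25.6 ± 3.0 per 1000 in 44_Novel and 9.05 ± 1.77 in 42_AlphaOFFS. Its coefficient of variation on that scale was 18.1%, with 3 panel genes lower, beside 59.5% for the median gene. Retina 4 had the lowest share in 45 of 45 types, at 21.7 in 44_Novel and 6.11 in 42_AlphaOFFS. Across the 45 types that share fell as the mean total of puncta per cell rose (r = -0.89), while the Spc25 count per cell had r = -0.15 with that total. Profiles most like Spc25 were those of Crym (r = 0.85), the vesicular inhibitory amino acid transporter gene Slc32a1 (r = 0.83) and Gas7 (r = 0.82), all as shares of puncta. Per cell these genes also varied little over types, with coefficients of variation of 16.4%, 15.2% and 21.7%. The part of the shared total of puncta in these correlations was not tested.

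**Figure D1:**
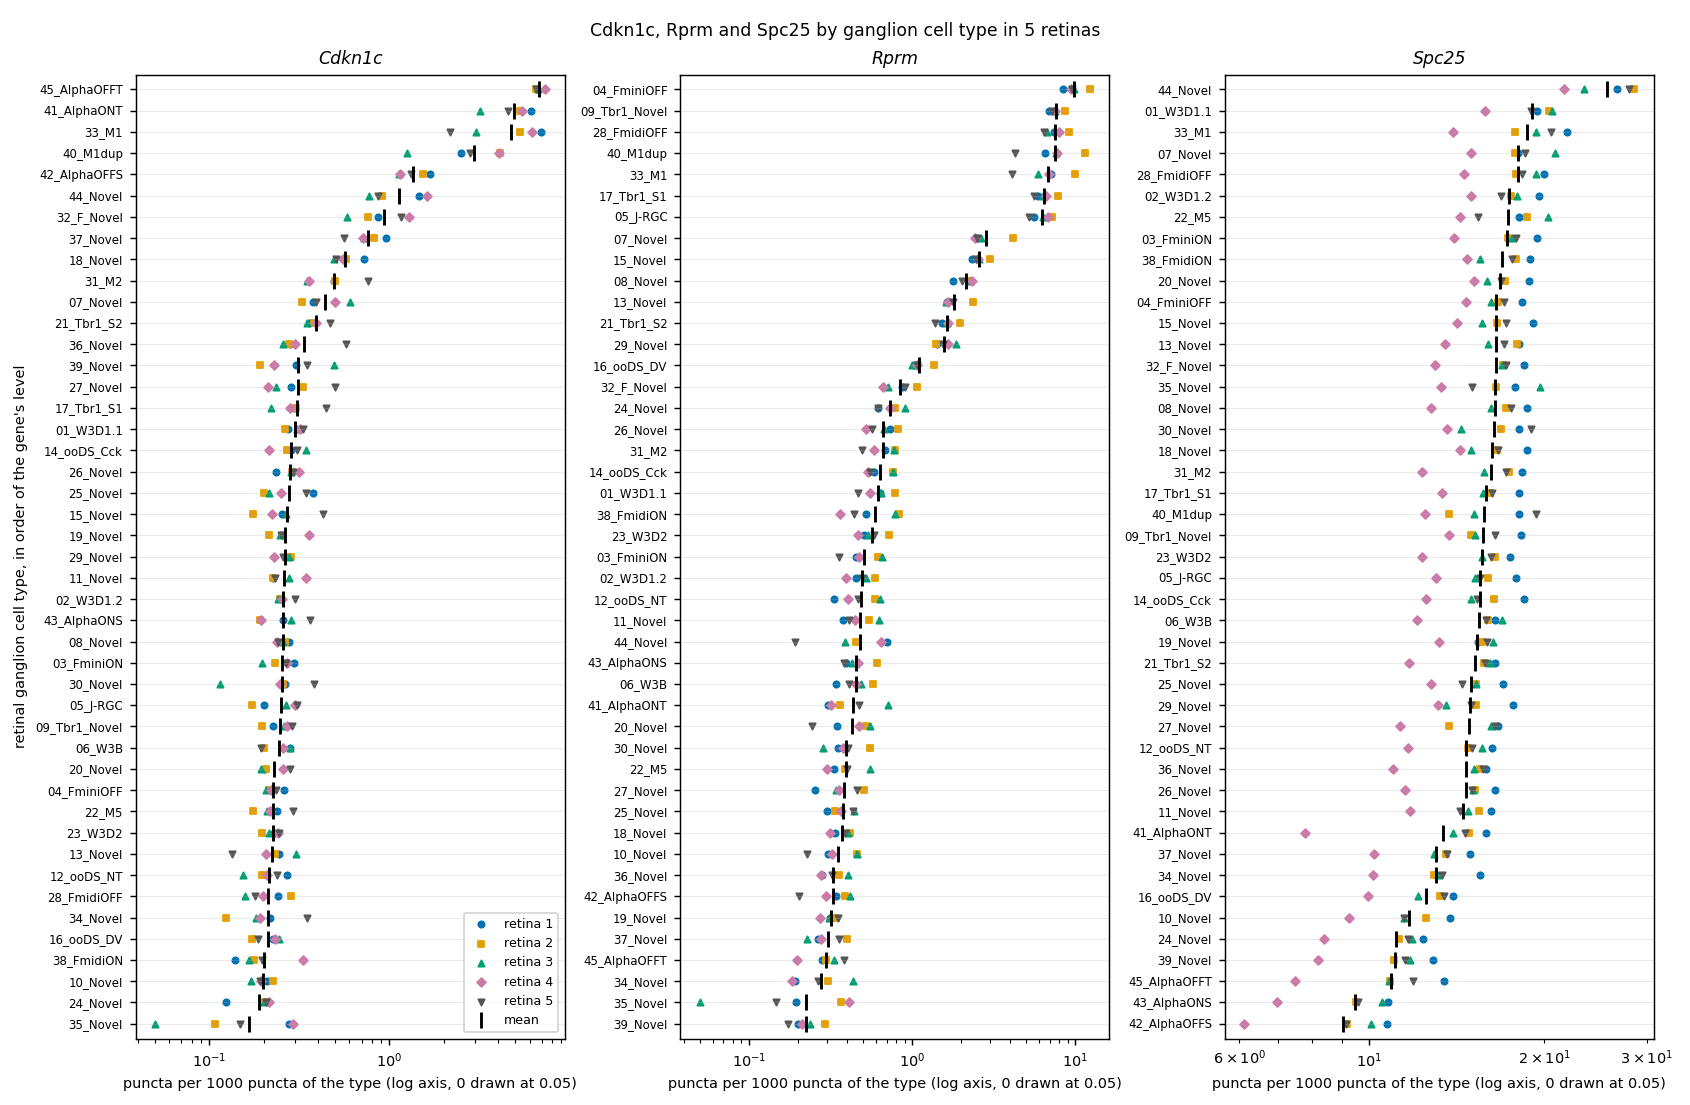
Puncta per 1000 puncta of each type on a log axis for Cdkn1c, Rprm and Spc25, with types down the page in order of the gene's mean, a symbol for each of 5 retinas and a bar for their mean. Cdkn1c and Rprm fall steeply after their first 7 types or fewer, whereas type means of Spc25 stay between 9.05 and 25.6, and retina 4 is the lowest for Spc25 in 45 of 45 types; a level of 0 is drawn at 0.05.

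**Figure D2:**
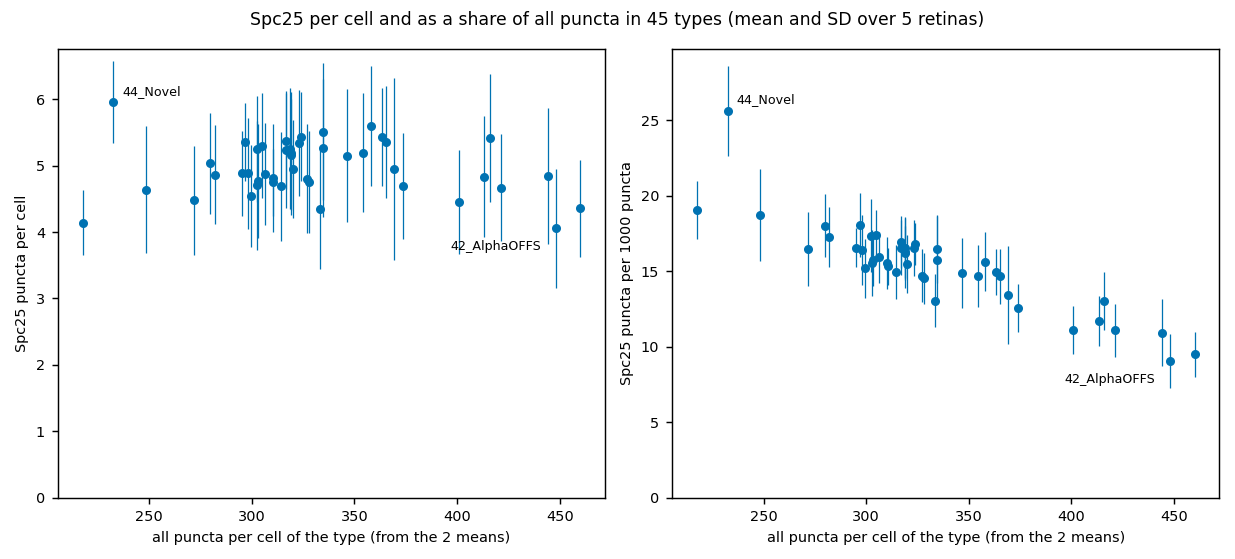
Spc25 per cell (left) and per 1000 puncta (right) in 45 types, against the puncta of all genes per cell of the type, as mean and SD over 5 retinas. The count per cell stays between 4.05 and 5.96, and the share falls with the total.

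Spc25 also differed between sections. Within a retina its highest section was 1.78, 2.26 and 2.01 times the lowest in retinas 1 to 3, above Cdkn1c (1.25, 1.56 and 1.22) and Rprm (1.39, 1.37 and 1.21). In retinas 4 and 5 it was 1.35 and 1.28 times, below Cdkn1c (1.39 and 1.30) and Rprm (1.42 and 1.36). Over all 27 sections with at least 1000 cells it ranged between 8.45 and 21.4 per 1000 puncta, a ratio of 2.53, with a coefficient of variation of 22.9% beside 14.1% for the median panel gene. Cdkn1c ranged between 0.436 and 0.706 (13.5%) and Rprm between 1.22 and 2.33 (16.6%). In retina 2 the highest Spc25 section had 19.2 and the lowest 8.52, and in retina 3 the values were 17.0 and 8.45. The highest and lowest sections were picked by Spc25 itself, which favours this direction within types, so the counts of types are a description. Between those sections Spc25 was higher in 42 of 42 types in retina 1, 24 of 24 in retina 2, 17 of 17 in retina 3, 38 of 38 in retina 4 and 42 of 43 in retina 5. Slides of a retina differed too, at 19.2 and 13.5 in retina 1 and at 11.7 and 14.4 in retina 4. What differs between sections and slides, and its part in these values, was not tested.

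**Figure D3:**
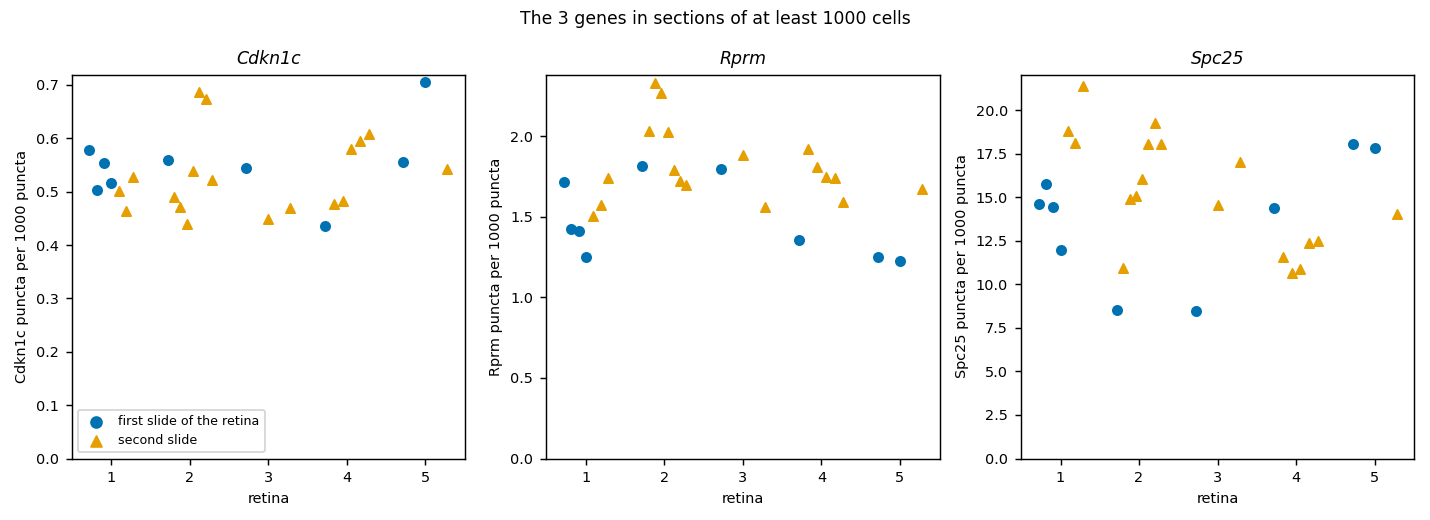
Cdkn1c, Rprm and Spc25 per 1000 puncta in the 27 sections with at least 1000 cells, grouped by retina, with the symbol showing the slide. Spc25 spans 8.45 to 21.4, with sections of one retina up to 2.26 times apart.

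Positions scaled by the authors to a circle were used to split each retina into a periphery and a centre at a scaled radius of 0.5, and at 0 along X and Y, axes for which the labels give no anatomical direction. Cdkn1c was 0.545 ± 0.055 in the periphery and 0.479 ± 0.042 in the centre (n = 5). That is a log2 difference of 0.17 ± 0.08 (SE), which did not pass the threshold in edgeR (adjusted p = 0.196), with 6.67% of the 300 genes called, 3.33% higher and 3.33% lower in the periphery. Rprm was 1.65 ± 0.24 in the periphery and 1.70 ± 0.30 in the centre, a log2 difference of -0.05 ± 0.06 in edgeR (adjusted p = 0.563). Spc25 was higher in the periphery in all 5 retinas, at 16.0 ± 1.9, than in the centre, at 13.8 ± 1.6, which is given as a description because it was known. By ring it was 11.1, 13.9, 15.6, 16.4 and 15.1 per 1000 puncta at increasing radius. Within types its radial difference was above 0 in 39 of 40 types, with a median of 0.23 on the log2 scale, beside 0.00 for all type-gene pairs.

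Along X, Cdkn1c was 0.563, 0.579, 0.538, 0.613 and 0.593 at X above 0 in retinas 1 to 5, and 0.436, 0.433, 0.437, 0.449 and 0.547 at X below 0. It was higher at X above 0 in every retina, by the least in retina 5. The log2 difference was 0.34 ± 0.06 in edgeR (adjusted p = 0.0224), where 10% of genes were called, 6.33% higher and 3.67% lower at X above 0. The call was lost without retina 1 (adjusted p = 0.0656), retina 2 (0.0946), retina 3 (0.0534) or retina 4 (0.0832) in edgeR. When types were weighted to an equal mix at X above and below 0, the difference was 0.18 ± 0.05 in limma (adjusted p = 0.227), where 0% of genes were called and 44 of 300 had an unadjusted p under 0.05. Rprm was 1.47 to 1.94 at X above 0 and 1.43 to 2.25 at X below 0, lower at X above 0 in 4 of 5 retinas, a log2 difference of -0.12 ± 0.05 that missed the threshold in edgeR (adjusted p = 0.184) and passed it without retina 5 (adjusted p = 0.0462). Spc25 gave 0.08 ± 0.03 in edgeR (adjusted p = 0.127), and its sign turned with the section as the block, at -0.15.

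Along Y, Cdkn1c gave 0.06 ± 0.06, Rprm -0.02 ± 0.08 and Spc25 0.05 ± 0.04 on the log2 scale in edgeR (adjusted p = 0.653, 0.915 and 0.630). There, 0% of genes were called, 31 of 300 genes had an unadjusted p under 0.05, and DESeq2 called 6.

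Within types, the clearest difference was that of Cdkn1c in 33_M1, melanopsin cells that project to the circadian clock. At X above 0 it was 9.12, 6.94, 4.16, 8.64 and 2.37 per 1000 puncta in retinas 1 to 5, and at X below 0 it was 3.30, 2.87, 1.92, 2.67 and 1.83. Each retina was higher at X above 0, although the groups overlap through retina 5. The log2 difference was 1.33 ± 0.14 in edgeR (adjusted p = 7.53e-04 over 11826 type-gene pairs, of which 0.296% were called). It was called under all alternatives run, at 1.22 to 1.44. In the periphery of the same type Cdkn1c was 5.45 ± 2.28, against 2.69 ± 0.94 in the centre, which is 1.01 ± 0.15 on the log2 scale in edgeR (adjusted p = 0.00507, 5 of 5 retinas). Along the radius 2.22% of pairs were called, 1.51% higher and 0.716% lower in the periphery. Opn4, the melanopsin gene that marks these cells, differed by 0.16 ± 0.09 along X and by 0.34 ± 0.08 along the radius, and was not called in edgeR (adjusted p = 0.618 and 0.0664).

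Along Y, Cdkn1c in 33_M1 was 2.80 ± 0.76 at Y above 0 and 6.54 ± 4.18 at Y below 0, a log2 difference of -1.08 ± 0.36 with adjusted p = 0.289 in edgeR. Retinas 3 and 5 ran the other way, and leaving out a retina gave -1.40 to -0.69. In 40_M1dup, retinas 1, 2 and 4 had enough cells, and Cdkn1c was 1.14, 0.65 and 0.82 at Y above 0 there, against 3.30, 5.36 and 5.93 at Y below 0. Each of these retinas was higher at Y below 0, and the log2 difference was -2.59 ± 0.25 in edgeR (adjusted p = 4.69e-06), with 0.452% of pairs called. Retina 5 ran the other way, at 3.34 above 0 and 1.49 below 0, and with a minimum of 30 cells per side the value over 5 retinas was -1.52 (adjusted p = 0.354 in edgeR). The call also did not hold without retina 1 (adjusted p = 0.0723) or retina 4 (0.450) in edgeR. Along X, Cdkn1c in 40_M1dup gave 0.66 ± 0.52 in edgeR (adjusted p = 0.765), 1.40 without retina 5 (adjusted p = 8.73e-07) and 0.17 without retina 4 (adjusted p = 0.963).

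Rprm in 40_M1dup was 4.46, 7.19 and 6.31 at Y above 0 in retinas 1, 2 and 4, and 7.76, 13.05 and 8.64 at Y below 0. The difference was -0.87 ± 0.14 in edgeR (adjusted p = 0.00234), and -0.66 over 5 retinas with 30 cells per side (adjusted p = 0.229). It lost its call without retina 1, 2 or 4, with adjusted p = 0.388, 0.269 and 0.239 in edgeR. In 08_Novel, Rprm was 1.98, 2.40, 2.63, 2.62 and 2.20 in the periphery of retinas 1 to 5, against 1.01, 1.96, 1.98, 1.77 and 1.85 in the centre. The periphery was higher in 5 of 5 retinas. The groups all but touch, with 1.982 in the periphery of retina 1 and 1.978 in the centre of retina 3. For Rprm the log2 difference was 0.50 ± 0.11 in edgeR (adjusted p = 0.00954), called under every alternative run. It was 1 of 16 of 281 genes called along the radius in this type. Markers of other cells were among those higher in the periphery, with the rod genes Gnat1 at 0.76 and Gngt1 at 0.34, Rpgrip1 at 0.83 and the Müller glia gene Rlbp1 at 0.47, and their part was not tested. The rod marker Nrl and the other Müller glia markers on the panel, Slc1a3, Aqp4, Apoe and Sox9, were not among the genes called.

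No other tested type passed the threshold for Cdkn1c or Rprm on any of the 3 splits. Cdkn1c was tested in 37 types along the radius, 43 along X and 40 along Y, and Rprm in 40, 43 and 42. The type 41_AlphaONT had too few cells for a test along the radius or Y. Its Cdkn1c was higher in the periphery in 5 of 5 retinas, at 5.49 ± 1.08 against 3.18 ± 1.25 in the centre. At Y above 0 it was higher in 5 of 5 retinas, at 5.53 ± 1.28 against 3.58 ± 0.83. Over the types tested, Cdkn1c had a median log2 difference of 0.11 along X, above 0 in 32 of 43 types, and Rprm one of 0.25 along Y, above 0 in 34 of 42 types. Medians over all type-gene pairs were -0.01 and 0.00 on those splits. Along the other splits Cdkn1c was above 0 in 20 of 37 types by radius and 21 of 40 along Y. Rprm was above 0 in 15 of 40 types by radius and 20 of 43 along X. At an equal mix of types, Rprm along Y gave 0.03 ± 0.09 in limma (adjusted p = 0.862). The types come from the same 5 retinas, so these counts of types are a description. Spc25 was above 0 in 39 of 43 types along X and 29 of 42 along Y, with no type called on either in edgeR, where 1188 and 1356 of all pairs had an unadjusted p under 0.05.

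**Figure D4:**
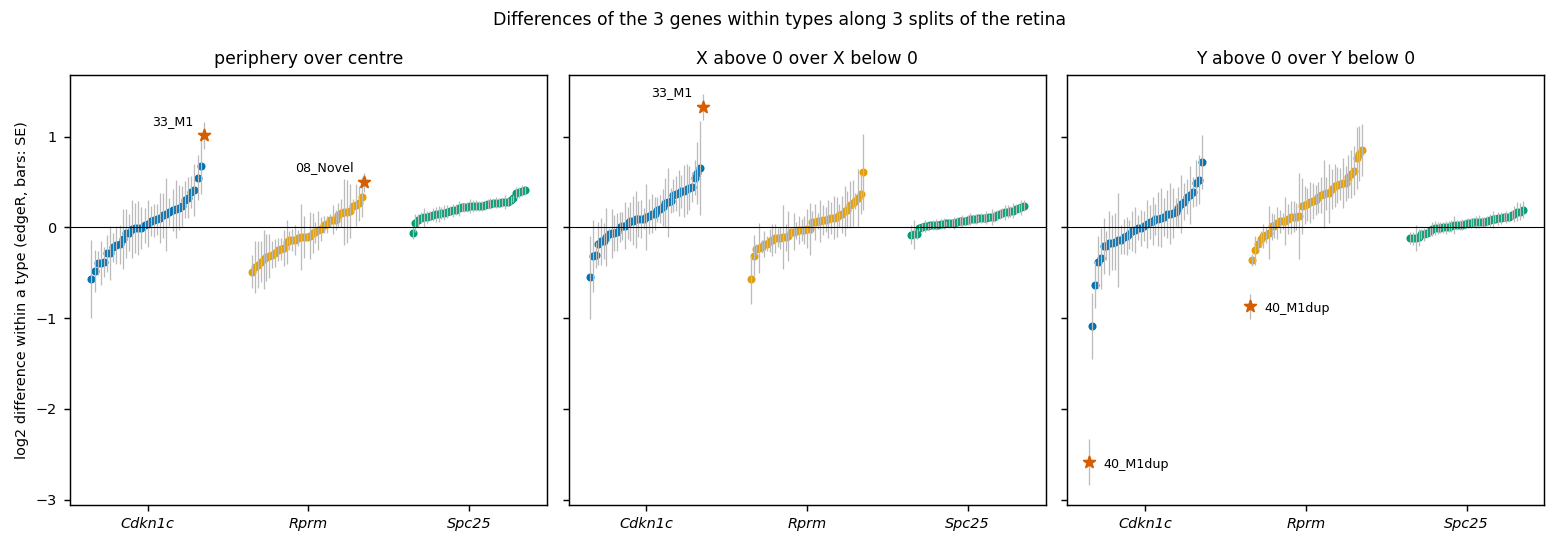
Log2 differences with SE for each type (point) along the radial, X and Y splits, for Cdkn1c, Rprm and Spc25, with stars for types called in edgeR; the radial differences of Spc25 were not tested. Cdkn1c in 33_M1 and 40_M1dup and Rprm in 08_Novel and 40_M1dup carry the stars.

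In both M1 types mean Cdkn1c was higher inside than outside one quadrant of the scaled retina, at X above 0 and Y below 0, which was singled out after its values were seen and has no test. In 33_M1, Cdkn1c was 14.4, 9.83, 4.58, 16.5 and 1.57 per 1000 puncta inside it in retinas 1 to 5, and 3.36, 3.30, 2.63, 2.27 and 2.33 outside it. Retinas 1 to 4 were higher inside and retina 5 was lower. Cells with at least 5 puncta numbered 66 of 383 inside and 35 of 1085 outside, and cells with at least 15 numbered 26 and 2. In 40_M1dup the levels were 4.01, 7.09, 3.18, 9.15 and 1.26 inside and 1.37, 1.64, 1.02, 1.24 and 3.11 outside, and 13 cells inside and 1 outside had at least 15 puncta. Retina 3 had 10 cells inside there, and 1 of the 2 sectors of the quadrant was high, at a mean of 7.00, the other at 2.04 beside up to 2.33 in the sectors outside. The other melanopsin types, 31_M2 and 22_M5, had higher means inside at low levels, though not in every retina. In 31_M2 Cdkn1c was 0.632 ± 0.370 inside and 0.446 ± 0.156 outside, higher inside in 4 of 5 retinas. In 22_M5 it was 0.512 ± 0.526 and 0.206 ± 0.049, higher inside in 3 of 5 retinas, with 7 cells inside in retina 5. Without retina 5 the values in 22_M5 were 0.285 ± 0.165 and 0.202 ± 0.055, higher inside in 2 of 4 retinas. In the leading alpha types the mean was lower inside: 41_AlphaONT was 3.72 ± 0.83 inside and 5.19 ± 1.17 outside, and 45_AlphaOFFT was 5.93 ± 1.31 inside and 7.15 ± 0.91 outside. This did not hold in every retina, with 41_AlphaONT higher inside in 1 of 5 retinas and 45_AlphaOFFT in 2 of 5. The alpha type 42_AlphaOFFS was 1.28 ± 0.61 inside and 1.38 ± 0.18 outside, and was higher inside in 3 of 5 retinas. Without retina 5 its mean was higher inside, at 1.45 ± 0.55 against 1.35 ± 0.20 outside.

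Retina 5 also differed in other measures. The ratio of the short-wave to the middle-wave cone opsin gene, Opn1sw over Opn1mw, was 0.508 at Y above 0 and 0.292 at Y below 0 in retina 5. In retinas 1, 2 and 4 it was 0.176, 0.229 and 0.293 at Y above 0, and 0.334, 0.491 and 0.501 at Y below 0, while retina 3 had 0.403 and 0.404. Along X it was retina 3 that stood apart, at 0.601 above 0 and 0.308 below 0, where the other 4 retinas were lower at X above 0. Tbx20 over all types was 0.748 at X above 0 and 1.46 at X below 0 in retina 5. In the other 4 retinas it was 1.20 to 1.23 at X above 0 and 1.06 to 1.31 at X below 0. Along Y, retinas 3 and 5 had 1.20 and 1.15 above 0, and 1.05 and 1.04 below 0. Retinas 1, 2 and 4 had 0.894, 0.818 and 0.807 above 0, and 1.58, 1.58 and 1.55 below 0. These puncta lie in ganglion cell outlines, and whether the placement of retinas 3 and 5 has a part in their Cdkn1c values was not tested. As for vessel markers in 33_M1, Cdh5 of endothelium was higher at X above 0 in 3 of 5 retinas, with means of 1.16 ± 0.48 at X above 0 and 1.34 ± 0.51 at X below 0, and Pdgfrb of pericytes was 0.293 ± 0.118 at X above 0 and 0.618 ± 0.438 at X below 0. In the periphery they were higher, Cdh5 at 1.44 ± 0.47 against 0.935 ± 0.598 in the centre and Pdgfrb at 0.548 ± 0.428 against 0.263 ± 0.111, neither called in edgeR (adjusted p = 0.260 and 0.344). Over all types these markers were lower, with Cdh5 at 0.349 ± 0.065 at X above 0 and 0.310 ± 0.071 at X below 0. Pdgfrb over all types was 0.111 ± 0.018 and 0.123 ± 0.026 on those sides. The part of these vessel markers in the differences of Cdkn1c was not tested.

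**Figure D5:**
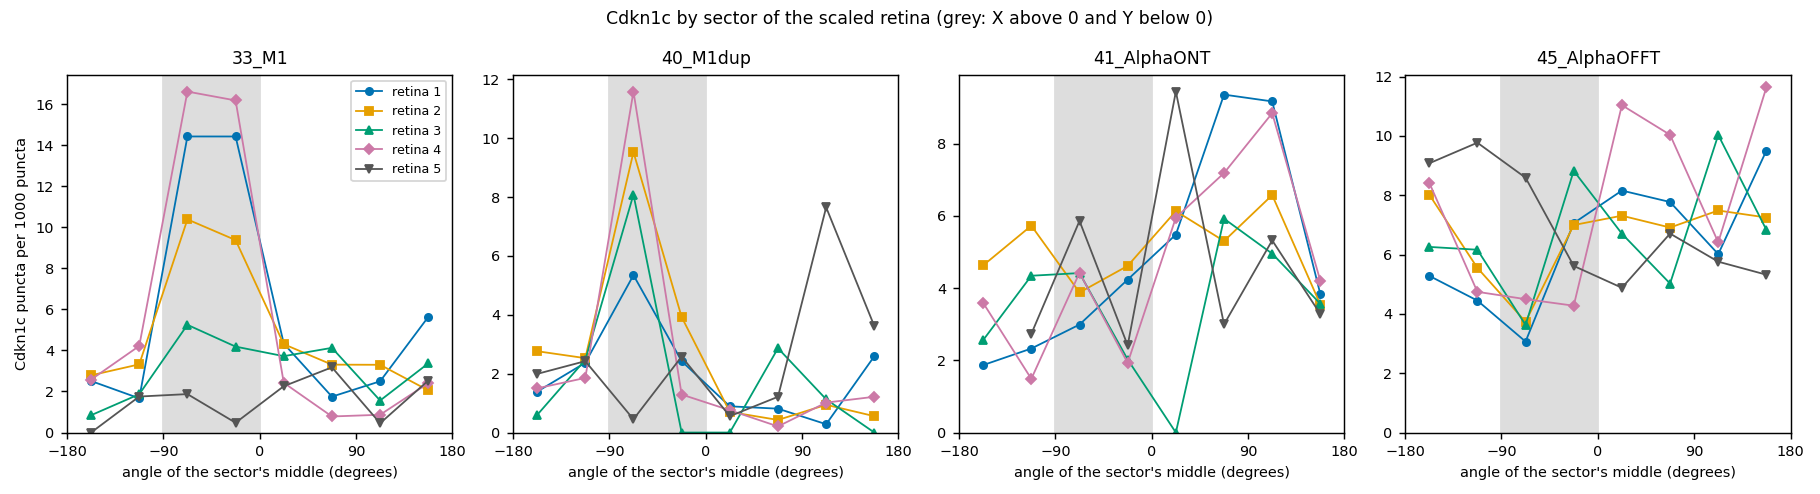
Cdkn1c per 1000 puncta in 8 sectors of 45 degrees for each retina, in 33_M1, 40_M1dup, 41_AlphaONT and 45_AlphaOFFT. Retinas 1 to 4 peak in the shaded quadrant in the M1 types, at up to 16.6 in 33_M1, and retina 5 does not.

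Cells larger than the median of their own type and retina were compared with smaller ones. Cdkn1c was higher in larger cells by 0.17 ± 0.05 on the log2 scale in edgeR (adjusted p = 0.0116, 5 of 5 retinas), and Spc25 by 0.20 ± 0.03 (adjusted p = 7.89e-04, 5 of 5 retinas). Rprm gave 0.02 ± 0.03 (adjusted p = 0.585). Calls were common here, at 63.7% of genes, and larger cells had median totals of 369 to 407 puncta, against 213 to 246 in smaller cells. Without retina 2 the Cdkn1c call was lost, with adjusted p = 0.0579 in edgeR.

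Cells with a Cdkn1c punctum were set against cells without one, weighted to the same mix of types. Kcnip2 was 2.81 ± 0.31 per 1000 puncta in cells with Cdkn1c and 0.923 ± 0.260 in cells without it, a log2 difference of 1.65 ± 0.19 in limma (adjusted p = 0.00224, 5 of 5 retinas). Etv1 was 4.49 ± 0.51 with and 1.76 ± 0.35 without Cdkn1c, a difference of 1.37 ± 0.15 (adjusted p = 0.00190 in limma). The 2 genes most like Cdkn1c across types were also the leading ones within them, and 4 of 5 alpha cell markers, a list that holds both, were higher, with a median of 0.51 beside -0.05 for all 298 genes, of which 17.4% were higher. Next was Cdh5, an adhesion gene of endothelium, at 0.736 ± 0.189 with and 0.325 ± 0.064 without Cdkn1c (1.17 ± 0.07, adjusted p = 5.82e-04 in limma), and Pdgfrb, the 1 pericyte marker on the panel, was higher by 0.80 (adjusted p = 0.00207 in limma). The part of vessel RNA in the Cdkn1c puncta was not tested. Genes lower with Cdkn1c were led by Vip at -0.70, Tac2 at -0.62 and A930001A20Rik at -0.58, and 7 of 12 amacrine markers were lower, beside 38.3% of all genes. Cells with Cdkn1c had medians of 336 to 365 puncta, against 279 to 323 without it. After thinning of each cell to 100 puncta Kcnip2 differed by 1.18, Etv1 by 0.85 and Cdh5 by 1.88, all still called, while the count of called genes was 55 in place of 166. Tac2 was called there too, at -0.69 (adjusted p = 0.0317 in limma), and Vip and A930001A20Rik were too rare to test.

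Cells with Rprm had more of the melanopsin cell markers than cells of the same types without it. Opn4 was 1.00 ± 0.26 with and 0.520 ± 0.078 without Rprm, a log2 difference of 0.91 ± 0.11 in limma (adjusted p = 0.00244). Tbx20 was higher by 0.55 and Zcchc12 by 0.35, and 4 of 4 melanopsin cell markers, Opn4 and Tbx20 among them, 3 of 3 Tbr1 cell markers and 4 of 5 general ganglion cell markers were higher, beside 15.4% of all genes. The leading genes on the other side were Sst at -1.68, Gsg1 at -1.15 and Rpgrip1, a photoreceptor gene, at -1.07. Gsg1 and Rpgrip1 lost their calls after thinning (adjusted p = 0.0920 and 0.0616 in limma), and Sst was too rare to test there. With Rprm, 35.8% of all genes were lower, and so were markers of other cells: 6 of 7 bipolar, 3 of 3 rod and 4 of 5 Müller glia markers, with summed bipolar levels of 3.06 to 4.32 with and 3.34 to 5.58 without Rprm. Their part was not tested.

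Cells with Spc25 had less of the photoreceptor and bipolar markers. Sparc, a matrix protein gene, was 5.66 ± 0.88 with and 3.13 ± 0.28 without Spc25 (0.85 ± 0.04, adjusted p = 9.51e-05 in limma), Fxyd6 was higher by 0.64, and Crym by 0.61. Rpgrip1, Opn1sw and Cngb1, all photoreceptor genes, were lower by 1.63, 1.40 and 1.38 on the log2 scale. After thinning the differences were -0.79, -0.33 and -0.55, and the call of Opn1sw was lost there (adjusted p = 0.0570 in limma) and at an equal mix of sections (adjusted p = 0.0767 in limma). All 7 bipolar, 3 rod and 2 cone markers were lower with Spc25, and 3 of 5 Müller glia markers were higher, beside 32.1% of all genes lower and 18.1% higher. The Müller glia markers had sums of 4.49 to 6.14 with and 3.87 to 5.20 without it. Cells with Spc25 had medians of 300 to 338 puncta, against 191 to 217 without it, and the part of these cells' RNA was not tested.

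None of the members was called in the cells that held another of them. In cells with Cdkn1c, Rprm differed by -0.08 ± 0.04 and Spc25 by 0.00 ± 0.03 on the log2 scale in limma (adjusted p = 0.118 and 0.911), where 55.7% of genes were called. With at least 2 Cdkn1c puncta required, Spc25 was lower, by -0.31 (adjusted p = 0.00656 in limma). With Rprm, Spc25 gave 0.03 ± 0.02 (adjusted p = 0.279) and Cdkn1c -0.01 ± 0.10 (adjusted p = 0.932) in limma, with 51.2% called. With Spc25, 50.2% of genes were called, and Rprm gave 0.04 ± 0.04 (adjusted p = 0.360) and Cdkn1c 0.00 ± 0.04 (adjusted p = 0.945) in limma. Co-detection in cells thinned to 100 puncta was tested over the 5 retinas by exact permutation of signs, two-sided, a test that cannot pass the threshold with 5 retinas. Its log2 odds ratio was -0.19 ± 0.19 (SD) for Cdkn1c with Rprm (exact p = 0.125), 0.01 ± 0.13 for Cdkn1c with Spc25 (exact p = 1) and 0.16 ± 0.07 for Rprm with Spc25 (above 0 in 5 of 5 retinas, the smallest exact p that 5 retinas allow). Adjusted over the 3 pairs these are 0.188, 1 and 0.188. With the type as a stratum the odds ratios were -0.19, 0.14 and 0.06, each with an adjusted exact p of 0.312.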

How the data were processed

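The deposited table gives counts, whole numbers of decoded puncta per gene and cell, with retina, slide, section, scaled position, volume and predicted type; per the file headers the authors made these, and segmentation, cell filters and type assignment are not given in the sources used here. Depth was at least 100 puncta per cell. No label ties a slide to one of the 4 deposited samples, so the replicate was the retina (n = 5); 2 slides each hold sections of 2 retinas. The genes, gene lists and tests were chosen with earlier results of these data known.

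Counts were summed per retina and side and fitted with edgeR 4.0.16 (quasi-likelihood, TMM, filterByExpr, retina as block) in R 4.3.3, adjusted by Benjamini-Hochberg over all genes, or all type-gene pairs (at least 50 cells per side, at least 3 retinas), at a threshold of 0.05. Comparisons at an equal mix took types that had 20 cells or more on each side and weighted them by their cell number over both sides. Comparisons of cells with and without a gene weighted types by their cells with the gene, whose own puncta were left out of totals. Both kinds added 0.5 to each weighted sum and used limma 3.58.1 on the 5 differences, leaving out genes whose smaller sum averaged under 10. Genes named beside the members had the 3 highest profile correlations (0.05 added before log2), or the 3 largest differences each way among those called in 5 of 5 retinas with at least 100 puncta in the smaller group. DESeq2 1.42.0, blocks by slide or section, splits, filters, thinning and left-out retinas were alternatives. Scripts were tested on simulated data. Python 3.11.15 was used for the rest.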

Additional observations from a re-analysis of the deposited data

Results flagged for a closer look

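Of 39 groups of 5 retinas checked among the levels, axis ratios and co-detection values, 2 held a retina far from the others, and chance alone flags about 1 group in 20. Cdkn1c in 45_AlphaOFFT was 7.32 per 1000 puncta in retina 4, with the other retinas at 6.47 to 6.70. Rprm in 07_Novel was 4.15 in retina 2, with the other retinas at 2.43 to 2.65.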

How the results depend on the processing

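The retinas are paired with themselves, so the retina was the block. Without the block, 1 gene was called along the radius, 1 along X and 11 by volume, Cdkn1c gave 0.33 along X (adjusted p = 0.255 in edgeR), and by volume Cdkn1c gave 0.17 and Spc25 0.20 (adjusted p = 0.230 and 0.273 in edgeR). DESeq2 called 44 genes along the radius, 49 along X and 6 along Y, and within types 127, 20 and 25 pairs. With the section as the block 52 genes were called along the radius and 56 along Y, and a radial split at 0.6 called 32. Thinning left 55 genes with Cdkn1c, and 30 cells per side left 0 pairs along Y, with Cdkn1c in 40_M1dup at -1.52 and Rprm at -0.66. A variance trend, chosen after seeing the data, called 18 and 4 genes along the radius and X at an equal mix of types. Signs turned for Spc25 along X with the slide (-0.082) or section (-0.15) as the block, and for Rprm along Y with the slide as the block (0.022) or cells near the split left out (0.0042). They also turned for Cdkn1c along the radius at an equal mix with 50 cells per type (-0.028). Among the cells with another member, they turned for Spc25 with Cdkn1c after thinning (0.082), for Cdkn1c and Spc25 with Rprm at 2 or more puncta (0.18 and -0.0013), and for Cdkn1c with Spc25 at an equal mix of sections (-0.011, chosen after seeing the data). Co-detection at 2 or more puncta was 0.13 for Cdkn1c with Rprm, -0.17 for Cdkn1c with Spc25 and 0.078 for Rprm with Spc25. In cells as deposited, which differ in depth, it was 0.36 and 0.57 for the last pairs, and 0.10, 0.45 and 0.68 within types. The highest over the median type was 35.0 for Cdkn1c and 1.22 for Spc25 per cell, and 14.7, 12.1 and 1.23 for Cdkn1c, Rprm and Spc25 by share of thinned cells.

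Leaving out 1 retina in turn moved the genes called to between 2 and 53 along the radius, 2 and 43 along X, and 0 and 2 along Y. At an equal mix they were between 0 and 21 along the radius and 0 and 1 along Y. Pairs called within types were between 83 and 442 along the radius, 10 and 131 along X, and 5 and 262 along Y. Cdkn1c ranged from 0.30 to 0.39 along X, 0.14 to 0.20 by volume, -3.06 to -2.35 in 40_M1dup along Y, and at an equal mix -0.025 to 0.059 along the radius and -0.057 to 0.036 along Y. Rprm ranged from -0.11 to 0.0021 along the radius, -0.16 to -0.081 along X, -0.078 to 0.061 along Y, -0.0025 to 0.039 by volume, -0.999 to -0.802 in 40_M1dup along Y, and at an equal mix -0.050 to 0.024 along the radius and -0.023 to 0.096 along Y. Spc25 with Cdkn1c ranged from -0.021 to 0.023, Cdkn1c with Rprm from -0.096 to 0.071, Cdkn1c with Spc25 from -0.015 to 0.041, and co-detection of Cdkn1c with Spc25 from -0.029 to 0.052. Of 484 alternatives, 381 kept the direction and side of the threshold, or the size, and the cause of the others was not tested. Leaving out retinas within types was chosen after seeing the data. With 9.22% of cells holding a Cdkn1c punctum, its values in single types rest on few puncta per cell.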

Other observations

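Other panel genes also differed along the axes within the M1 types, and they were singled out after their values were seen. In 33_M1, 3 of 265 genes were called along the radius in edgeR, namely Cdkn1c, the galanin gene Gal at 1.30 ± 0.27 (adjusted p = 0.0307) and Nell1 at 0.55 ± 0.10 (adjusted p = 0.0192), all higher in the periphery in 5 of 5 retinas. Along X, 2 of 276 were called in edgeR, Cdkn1c and Gad2, which makes the inhibitory transmitter GABA, at 0.70 ± 0.11 (adjusted p = 0.0258). In 40_M1dup, 17 of 256 genes were called along Y in edgeR over the 3 retinas that had enough cells, and with 30 cells per side none of these calls held. Beside Cdkn1c and Rprm, they included Nell1 at 2.60 ± 0.18, Lxn at -1.46 ± 0.18, Stk32a at -1.29 ± 0.13 and 3 melanopsin cell markers, Opn4 at -0.62 ± 0.14, Tbx20 at -0.64 ± 0.12 and Igf1 at -0.71 ± 0.13. Their adjusted p in that order were 1.37e-08, 9.86e-05, 6.13e-06, 0.0468, 0.0172 and 0.00861 in edgeR.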
